A study of Mus musculus with 6 samples.

Results

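The genes described here encode the receptors through which myeloid cells read granulocyte-macrophage colony-stimulating factor (GM-CSF), interleukin-3 (IL-3) and granulocyte colony-stimulating factor (G-CSF), the STAT factors that these receptors activate, and a pair of inhibitors that the STAT factors switch on. The 10 members are Csf2ra, Csf2rb, Csf2rb2, Csf3r, Il3ra, Stat3, Stat5a, Stat5b, Socs3 and Cish. They were chosen by name and function, with earlier results of these data known, and found by Entrez gene ID among the 36528 gene IDs of the tables. All 10 had reads and all 10 passed the filter on low counts.

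Transcripts were measured by RNA sequencing in 6 libraries of mouse bone marrow HOXB-8 cells, myeloid progenitors held in division by the homeobox factor HOXB8. The 3 libraries labelled IRF2_KO come from cells given guide RNA gRNA2 against Irf2, the gene of interferon regulatory factor 2, and the 3 labelled Parental come from Irf2 wild-type cells given the control guide Luc. The extraction notes call both iMACs, give n = 3 and do not say whether these were separate clones or cultures, so p-values measure the spread between libraries, which may be technical. The cytokine in the medium is not named in the labels. Irf2 itself had 40.3, 37.0 and 40.1 CPM (counts scaled to a common library size) in IRF2_KO, against 41.1, 42.4 and 41.1 CPM in Parental (log2 fold change -0.08, SE 0.05, edgeR adjusted p = 0.209). A count per gene holds no bases at the cut site, so this level does not check the labels.

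The GM-CSF and IL-3 receptors are built from an alpha chain that binds a single cytokine and a beta chain that signals. In the mouse the beta chain gene is duplicated: Csf2rb encodes the chain shared by the receptors for GM-CSF, IL-3 and IL-5, and Csf2rb2 encodes a chain used for IL-3 alone. The G-CSF receptor, encoded by Csf3r, pairs with a copy of itself and drives granulocyte formation. Receptor-bound JAK kinases then phosphorylate STAT5A, STAT5B and STAT3, which enter the nucleus and induce genes that include Cish and Socs3, whose products bind the receptor and damp the signal. HOXB-8 lines are commonly expanded in GM-CSF or stem cell factor.

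The promoter letters that STAT factors recognise are shown first, because Cish and Socs3 are used as readouts of STAT activity. The sequences are RefSeq windows on GRCm38.p6, from 250 bases before to 50 bases after an annotated start, and 9 of the 10 members had an entry. The windows of Cish (chr9:107296409-107296708, plus strand), Socs3 (chr11:117969317-117969616, minus strand) and Csf2rb2 (chr15:78305672-78305971, minus strand) hold the STAT core TTCNNNGAA, which reads the same on both strands, and are printed 5′ to 3′ with each match in capitals.
Cish: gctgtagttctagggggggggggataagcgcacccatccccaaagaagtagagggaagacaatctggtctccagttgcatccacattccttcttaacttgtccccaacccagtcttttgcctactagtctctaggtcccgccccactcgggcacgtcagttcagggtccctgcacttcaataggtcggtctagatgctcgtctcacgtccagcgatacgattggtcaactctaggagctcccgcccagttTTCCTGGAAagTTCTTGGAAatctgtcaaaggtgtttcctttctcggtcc
Socs3: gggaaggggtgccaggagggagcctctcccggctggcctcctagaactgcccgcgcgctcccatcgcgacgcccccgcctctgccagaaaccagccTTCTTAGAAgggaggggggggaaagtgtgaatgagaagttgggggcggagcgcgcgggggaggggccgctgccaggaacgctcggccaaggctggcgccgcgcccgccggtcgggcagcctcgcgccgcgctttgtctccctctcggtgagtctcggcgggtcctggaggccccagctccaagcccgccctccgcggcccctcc
Csf2rb2: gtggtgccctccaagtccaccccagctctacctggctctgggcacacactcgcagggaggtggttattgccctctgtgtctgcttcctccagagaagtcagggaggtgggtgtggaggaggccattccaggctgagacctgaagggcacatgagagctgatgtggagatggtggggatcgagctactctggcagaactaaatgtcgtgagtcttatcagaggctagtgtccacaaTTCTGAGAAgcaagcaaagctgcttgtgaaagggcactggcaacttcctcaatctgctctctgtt

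The Cish window has a pair of matches, at bases 1 to 9 and 12 to 20 counted from the annotated first transcribed base. Socs3 has a single match from -154 to -146, and Csf2rb2 a single match from -15 to -7. The motif occurs in the windows of 9.55% of 27025 genes, and 0.540% have 2 or more matches in the same window, as Cish does. The interferon response core, GAAA repeated after a gap of any 2 bases and searched on both strands, occurs in 3.99% of genes and was found in none of the members' windows. A match is a description of letters and not evidence of binding.

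The IRF2_KO cells had more transcript of the GM-CSF receptor alpha chain, the IL-3-specific beta chain, STAT5B and CISH, and less of the G-CSF receptor, the IL-3 receptor alpha chain and STAT5A. The common beta chain, STAT3 and SOCS3 did not pass the test. In all, 7 of 10 members were called (edgeR quasi-likelihood test, p adjusted by Benjamini-Hochberg over every gene tested, threshold 0.05), 4 higher and 3 lower, where 47.2% of 13353 tested genes were called, 23.6% higher and 23.6% lower. The members were chosen with earlier results of these data known and Il3ra passed the filter only through the Parental libraries, so the count describes these genes and tests nothing. Apart from Il3ra the differences were moderate: absolute log2 fold changes of the other called members ran from 0.27 for Cish to 0.54 for Csf2rb2, beside a median of 0.18 over all tested genes. When changes were tested against 1.5-fold with glmTreat, Il3ra alone remained called, with the same limit from the filter.

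**Figure D1:**
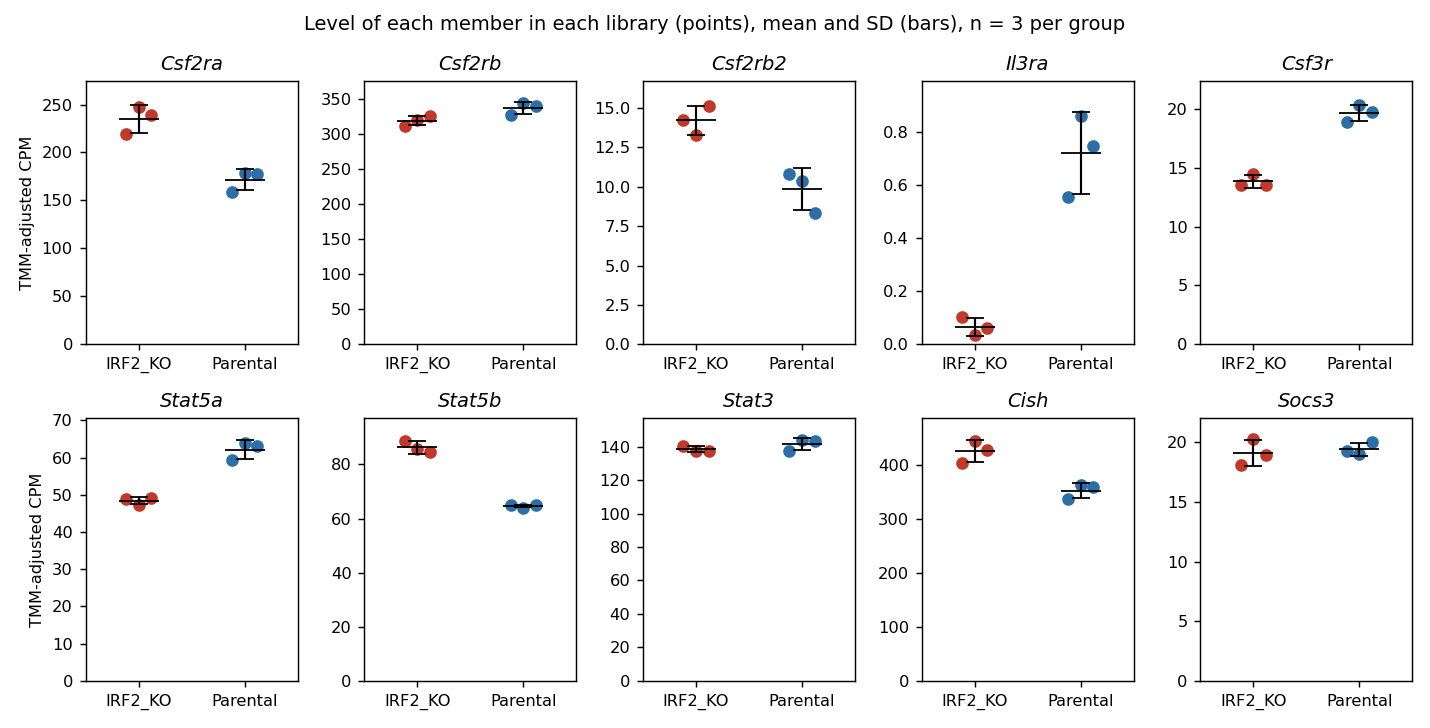
Transcript level of each member in TMM-adjusted CPM (y axis, from 0) in the 3 IRF2_KO libraries (red, left) and the 3 Parental libraries (blue, right). Points are libraries and bars are mean and SD. The groups stand apart for all members except Stat3 and Socs3, as they do for 54.0% of all tested genes. Csf2rb is among those apart but did not pass the test. Il3ra lies below 1 CPM in every library.

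Csf2ra (chromosome 19, 61217191 to 61228461), the chain that binds GM-CSF, stood at 219, 247 and 239.6 CPM in IRF2_KO, against 159, 179 and 177 CPM in Parental. Every IRF2_KO library was above every Parental library. The mean was 235 ± 14.4 CPM in IRF2_KO and 172 ± 11.1 CPM in Parental (SD, n = 3 each), a rise of 0.45 on the log2 scale (SE 0.05, edgeR adjusted p = 1.76e-06), or 37.1% with a 95% interval of 26.8% to 48.2%. No 50-base window of its coding transcripts occurs in a transcript of another gene.

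Csf2rb (chromosome 15, 78325800 to 78351001), the signalling chain that the GM-CSF, IL-3 and IL-5 receptors share, had 312, 319.5 and 325 CPM in IRF2_KO, against 327, 344 and 339.9 CPM in Parental. The groups did not overlap, as was so for 54.0% of all tested genes, and the highest IRF2_KO library was close to the lowest Parental library. With a log2 fold change of -0.08 (SE 0.04, 95% interval -0.16 to 0.00) it missed the threshold, at an edgeR adjusted p of 0.114. With library size alone in place of TMM scaling the call changed, with a log2 fold change of -0.11 and an adjusted p of 0.0273.

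Csf2rb2 (chromosome 15, 78282507 to 78305721), the IL-3-specific beta chain of the mouse, lies beside Csf2rb and was far less abundant. It had 14.2, 13.3 and 15.1 CPM in IRF2_KO, against 10.8, 10.4 and 8.33 CPM in Parental. The IRF2_KO libraries all lay above the Parental ones, among which that at 8.33 CPM was lowest. The log2 fold change was 0.54 (SE 0.09, edgeR adjusted p = 0.000154). Of the 50-base windows in its coding transcripts, 19.3% also occur in other genes, nearly all of these in Csf2rb, and 17.1% of Csf2rb windows are shared likewise. Only uniquely aligned reads were counted, so both levels leave out such stretches and are uncertain to that extent.

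Il3ra (chromosome 14, 14345912 to 14355493), the chain that binds IL-3, was close to the limit of detection. The IRF2_KO libraries held 3, 1 and 2 reads, against 22, 29 and 30 reads in Parental. Scaled to depth, this is 0.0650 ± 0.0333 CPM in IRF2_KO and 0.721 ± 0.154 CPM in Parental (SD, n = 3 each). Summed over libraries, 6 reads stood against 81, which makes the level 10.95-fold lower in IRF2_KO with a 95% exact binomial interval of 4.82 to 30.7 that covers counting error only. The fitted log2 fold change was -3.39 (SE 0.48, edgeR adjusted p = 1.44e-05), a larger change than that of 99.2% of tested genes. Because Il3ra passed the filter only through the Parental libraries, this p-value and rank are a description and not support. A level of 3 reads corresponds to between 0.0751 and 0.103 CPM, depending on the library.

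Csf3r (chromosome 4, 126023441 to 126044975), the G-CSF receptor of the granulocyte line, had 13.6, 14.5 and 13.5 CPM in IRF2_KO, against 18.9, 20.3 and 19.8 CPM in Parental. All IRF2_KO libraries were below all Parental libraries. The level fell by 0.50 on the log2 scale (SE 0.07, edgeR adjusted p = 9.42e-06). Of its coding 50-base windows, 11.4% occur in other genes. Csf3r is higher in late neutrophils than in their precursors. Among 13 late neutrophil markers, 7 were higher in IRF2_KO and 3 lower, beside 23.6% higher and 23.6% lower over all tested genes. The summed level of these markers was 411 to 422 CPM in IRF2_KO and 359 to 365 CPM in Parental. Their part in the Csf3r difference was not tested.

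**Figure D2:**
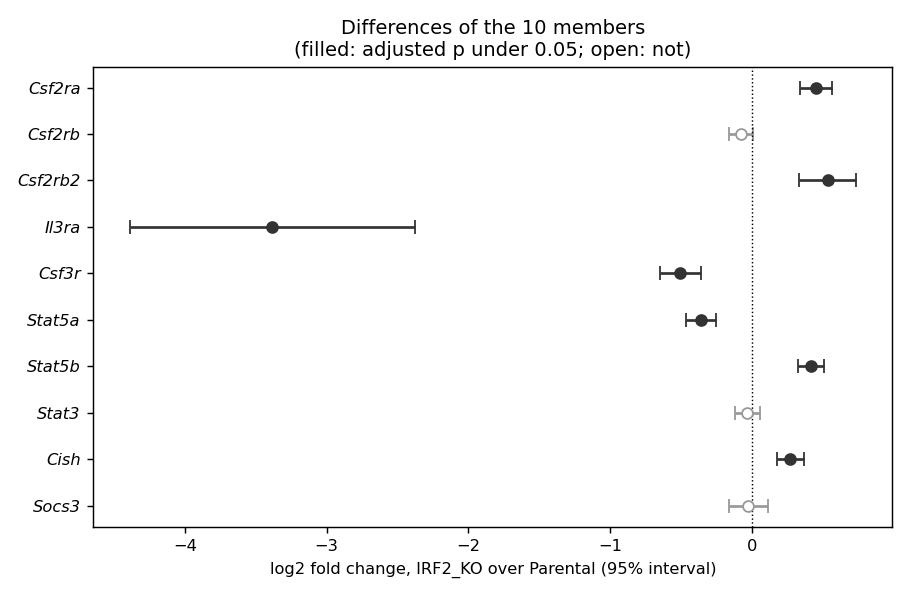
Log2 fold change of IRF2_KO over Parental (x axis) with its 95% interval for each member, from 3 libraries per group. Filled points passed an adjusted p of 0.05 and open points did not. Il3ra lies at -3.39 with a wide interval, while the other members lie between -0.50 and 0.54.

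The STAT5 genes moved in opposite directions. Stat5a and Stat5b are neighbouring paralogs on chromosome 11, Stat5a from 100859351 to 100885169 and Stat5b from 100780731 to 100859004, and their products carry the main signal of the GM-CSF and IL-3 receptors. Stat5b had 88.8, 85.6 and 84.4 CPM in IRF2_KO, against 64.9, 64.1 and 64.9 CPM in Parental, and rose by 0.42 on the log2 scale (SE 0.04, edgeR adjusted p = 5.98e-07). Stat5a had 48.9, 47.3 and 49.1 CPM in IRF2_KO, against 59.4, 63.9 and 63.2 CPM in Parental, and fell by 0.36 on the log2 scale (SE 0.05, edgeR adjusted p = 1.03e-05). The groups did not overlap for either gene.

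Levels of different genes were compared with the deposited RPKM, which divides reads by gene length. Stat5b made up 60.8% ± 0.734 of the summed RPKM of both STAT5 genes in IRF2_KO and 47.5% ± 1.12 in Parental (SD, n = 3 each). The sum was 25.8, 25.2 and 25.2 RPKM in IRF2_KO, against 23.7, 24.4 and 24.4 RPKM in Parental. These shares and sums were chosen after the values were seen and are a description. The log2 ratio of Stat5b to Stat5a reads was 0.78 higher in IRF2_KO than in Parental, and the ratio was higher in each of the 3 IRF2_KO libraries than in any Parental library. An exact two-sided permutation test gave p = 0.1, the smallest value that 3 libraries against 3 allow, and 0.1 after adjustment over the 4 pairs tested. Because Stat5b and Stat5a each stood apart, in opposite directions, this outcome was fixed by their levels and adds no support. Of the 50-base windows in coding transcripts, 15.2% of those of Stat5a and 11.1% of those of Stat5b also occur in other genes, chiefly in each other.

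Stat3 (chromosome 11, 100886806 to 100939594), the STAT factor most tied to the G-CSF receptor, had 140.4, 137 and 137 CPM in IRF2_KO, against 137, 144 and 143 CPM in Parental. The groups overlapped, and at a log2 fold change of -0.03 (SE 0.04, 95% interval -0.12 to 0.06) Stat3 missed the threshold, with an edgeR adjusted p of 0.575. The same short stretch of chromosome 11 thus held a gene that rose, a gene that fell and a gene whose groups overlapped. Exons of Stat3 and Stat5a overlap by 72 bases on opposite strands.

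**Figure D3:**
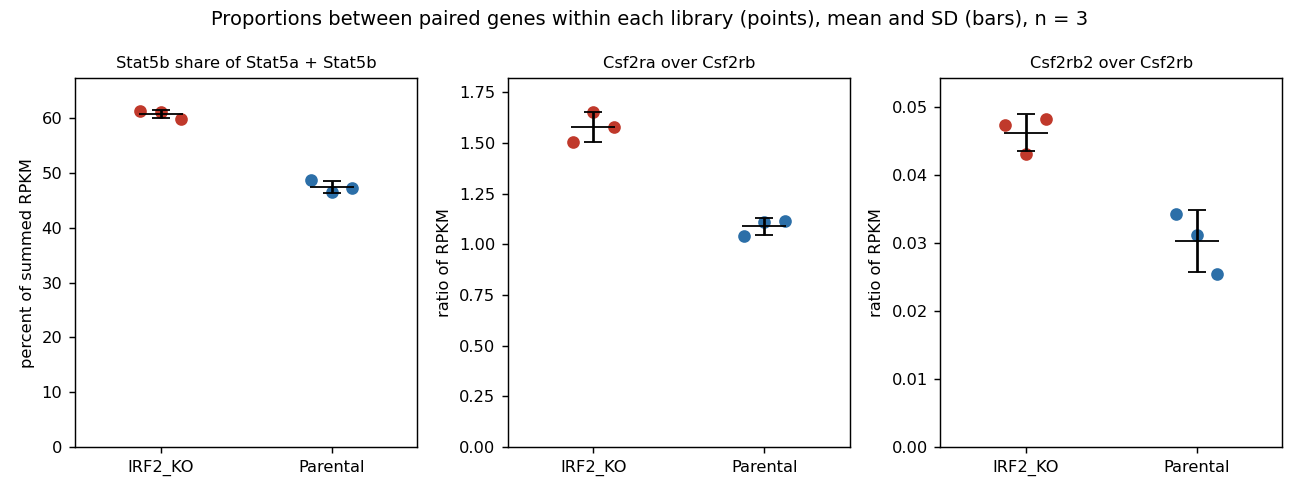
Proportions between paired genes in each library (points) with mean and SD (bars), from deposited RPKM, with IRF2_KO in red on the left and Parental in blue on the right. The y axes give the Stat5b share of summed Stat5a and Stat5b in percent, the ratio of Csf2ra to Csf2rb and the ratio of Csf2rb2 to Csf2rb. No IRF2_KO library overlaps a Parental library in any panel, and the ratio of Csf2ra to Csf2rb was not tested.

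Cish (chromosome 9, 107296659 to 107302784) encodes an SH2-domain inhibitor that STAT5 induces and that binds cytokine receptors. It had 404, 445 and 427 CPM in IRF2_KO, against 337, 362 and 359 CPM in Parental. Each IRF2_KO library was above each Parental library, and the level rose by 0.27 on the log2 scale (SE 0.05, edgeR adjusted p = 9.14e-05), or 20.6% with a 95% interval of 12.9% to 28.9%. Of its coding 50-base windows, 443 of 3691 also occur in other genes on either strand, 386 of them in Gm17041. Exons of genes on the opposite strand, Gm17041 among them, cover 740 of the 6419 exonic bases annotated for Cish, so these limits are not separate. Whether counting used strand is not given in the sources used here.

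Socs3 (chromosome 11, 117966079 to 117970336), an inhibitor that acts on receptors that use STAT3, the G-CSF receptor among them, had 18.1, 20.3 and 18.9 CPM in IRF2_KO, against 19.3, 19.0 and 20.04 CPM in Parental. The groups overlapped, and at a log2 fold change of -0.02 (SE 0.07, 95% interval -0.16 to 0.12) Socs3 missed the threshold, with an edgeR adjusted p of 0.790. The log2 ratio of Cish to Socs3 reads was 0.29 higher in IRF2_KO, with every IRF2_KO library above every Parental one (exact two-sided permutation p = 0.1, adjusted 0.1).

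Per gene length, Cish was the most abundant member in both groups, at 121 ± 6.47 RPKM in IRF2_KO and 99.6 ± 3.70 RPKM in Parental (SD, n = 3 each). Csf2ra followed, at 99.9 ± 6.61 RPKM in IRF2_KO and 72.5 ± 4.53 RPKM in Parental, and then Csf2rb, at 63.3 ± 1.51 RPKM in IRF2_KO and 66.6 ± 1.61 RPKM in Parental. In IRF2_KO the libraries of Csf2ra and Csf2rb did not overlap, whereas in Parental they did. The ratio of Csf2ra to Csf2rb was 1.58 ± 0.0750 in IRF2_KO and 1.09 ± 0.0430 in Parental. This ratio was not among the 4 pairs tested and is a description. Stat3 came next, at 30.2 ± 0.257 RPKM in IRF2_KO and 30.6 ± 0.736 RPKM in Parental.

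In the lower part of the order the STAT5 genes changed places. Stat5b was above Stat5a in IRF2_KO, at 15.4 ± 0.358 against 9.95 ± 0.163 RPKM, and below it in Parental, at 11.5 ± 0.101 against 12.7 ± 0.473 RPKM, with no overlap of libraries in either group. By reads, without division by length, Stat5b was above Stat5a in every Parental library too (log2 ratios 0.128, 0.003 and 0.038). Socs3 lay at 5.18 ± 0.330 RPKM in IRF2_KO and 5.23 ± 0.143 RPKM in Parental. Csf3r and Csf2rb2 overlapped in IRF2_KO, at 3.04 ± 0.135 and 2.93 ± 0.183 RPKM, and stood apart in Parental, at 4.29 ± 0.146 and 2.02 ± 0.275 RPKM. Il3ra was lowest in both groups, at 0.0215 ± 0.0109 RPKM in IRF2_KO and 0.238 ± 0.0505 RPKM in Parental.

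**Figure D4:**
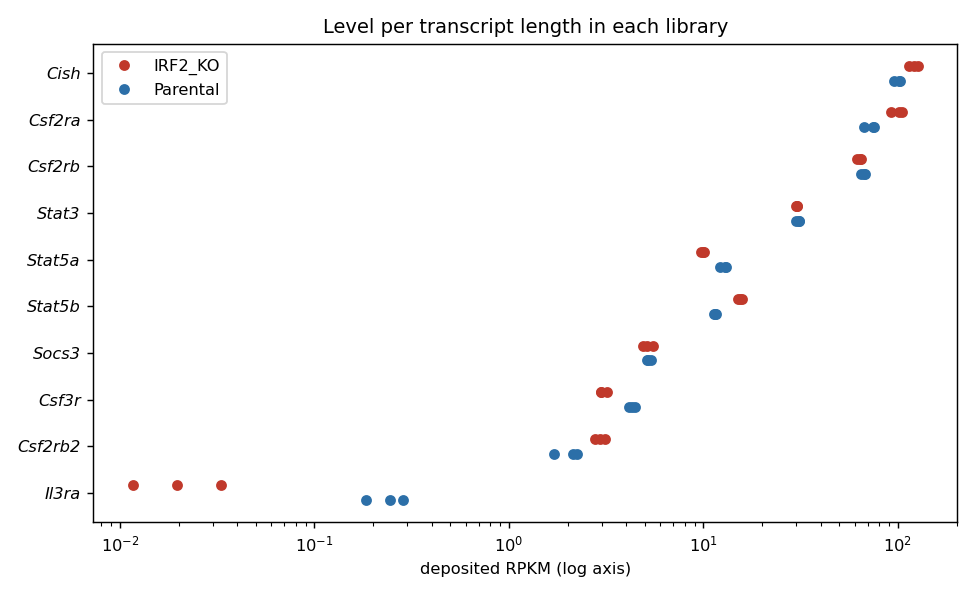
Deposited RPKM of each member (x axis, log scale) in the 3 IRF2_KO libraries (red, upper row of each gene) and the 3 Parental libraries (blue, lower row), with genes ordered by the Parental mean. Cish, Csf2ra and Csf2rb lie above 60 RPKM in every library, and the order of Stat5a and Stat5b differs between the groups.

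The receptor subunits were also compared in pairs. The ratio of Csf2rb2 to Csf2rb RPKM was 0.0463 ± 0.00277 in IRF2_KO and 0.0304 ± 0.00453 in Parental, and the log2 ratio of their reads was 0.62 higher in IRF2_KO. For the alpha chains, the log2 ratio of Il3ra to Csf2ra reads differed by -4.03 (IRF2_KO minus Parental), a value that rests on 6 Il3ra reads in IRF2_KO and ran from -4.47 to -3.61 when single libraries were left out. In both pairs no IRF2_KO library overlapped a Parental one, and both gave the smallest exact permutation p of 0.1 (adjusted 0.1). The genes of each pair already stood apart in opposite directions, so this outcome was fixed by their levels and adds no support. Il3ra also passed the filter only through the Parental libraries.

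Il3ra had the largest change among called members, and the genes averaging 2 CPM or more with the nearest centred log2 CPM profile over the 6 libraries were F5, Zc3h7b, Pimreg, Flt3l and Xist. Their root mean square distances were 0.200 to 0.243 on the log2 scale, among 10736 genes compared. The profile used a pseudocount of 0.1 CPM, which shrinks the change of so low a gene, and all 5 were lower in IRF2_KO, by log2 fold changes of -1.95 for Xist to -2.51 for Flt3l. These genes were picked for nearness to a profile that falls in IRF2_KO, so their shared direction follows from the choice. Il3ra itself passed the filter only through the Parental libraries.

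The surrounding pathway was read from 7 gene lists. The ligands were scarce. Of 12 ligand genes only 4 passed the filter, and 3 of these fell (background 23.6% lower), with a median log2 fold change of -1.74 beside -0.01 over all tested genes. Flt3l, the ligand of the FLT3 receptor, stood at 0.931 ± 0.0428 CPM in IRF2_KO and 5.32 ± 0.328 CPM in Parental (edgeR adjusted p = 2.32e-10). Csf1, the macrophage growth factor, stood at 5.12 ± 0.229 CPM in IRF2_KO and 10.1 ± 0.972 CPM in Parental. Tslp had no read in IRF2_KO and 54 in Parental, at least 14.6-fold lower counting 3 reads over the IRF2_KO libraries as the detection limit, and passed the filter only through Parental. Csf3, which encodes G-CSF, had 9.98 ± 0.371 CPM in IRF2_KO and 10.7 ± 0.446 CPM in Parental and did not pass (log2 fold change -0.10, adjusted p = 0.325). The other ligands were too low to test: Il3 and Epo had no read, and Csf2, Il5, Il6, Kitl, Thpo and Il34 averaged below 0.2 CPM in both groups.

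Of 7 JAK kinases and other STAT genes all were called, 6 higher and 1 lower, with a median log2 fold change of 0.26. Over all tested genes 47.2% were called, 23.6% higher and 23.6% lower. Jak2, the kinase that these beta chains and the G-CSF receptor use, stood at 98.7 ± 4.94 CPM in IRF2_KO and 84.7 ± 2.60 CPM in Parental, and rose by 0.22 on the log2 scale (SE 0.05, edgeR adjusted p = 0.00107). Jak1, Tyk2 and Jak3 rose by 0.16, 0.26 and 0.45 on the log2 scale. Stat2, which carries interferon signals, and Stat6, which carries those of IL-4 and IL-13, rose by 0.52 and 0.38. Stat4 was the gene that fell, to 40.1 ± 0.958 CPM in IRF2_KO, against 82.8 ± 2.12 CPM in Parental.

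Among 18 other SOCS genes and signal inhibitors, 7 rose, none fell and 11 did not pass (median log2 fold change 0.08). The share called was 38.9%, against 47.2% of all tested genes. Socs1, an inhibitor of JAK kinases that interferons induce, stood at 21.9 ± 0.268 CPM in IRF2_KO and 10.4 ± 0.0873 CPM in Parental (log2 fold change 1.07, edgeR adjusted p = 4.24e-10). Socs6 rose by 0.65, the phosphatase gene Ptpn1 by 0.39 and Pias1 by 0.23 on the log2 scale. The STAT5-induced Socs2 had 25.8 ± 1.98 CPM in IRF2_KO and 28.3 ± 0.672 CPM in Parental and did not pass (adjusted p = 0.0859), as did the phosphatase gene Ptpn6 (adjusted p = 0.810). These last 2 genes were chosen after their values were seen.

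Of 16 tested STAT5 target genes, 9 rose, 3 fell and 4 did not pass (75.0% called, against 47.2% of all tested genes), with a median log2 fold change of 0.25. Cdkn1a, a cell cycle inhibitor that p53 also induces, stood at 474 ± 15.98 CPM in IRF2_KO and 251 ± 7.40 CPM in Parental. Ccnd2, a D-type cyclin, stood at 335 ± 12.7 CPM in IRF2_KO and 212 ± 1.26 CPM in Parental, and Id1 rose by 0.51 on the log2 scale. Tfrc, the transferrin receptor, fell to 474 ± 31.6 CPM in IRF2_KO, against 708 ± 35.96 CPM in Parental. The other genes that fell were Bcl2 and Osm, by 0.51 and 0.35 on the log2 scale.

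The 20 STAT3 and G-CSF response genes had 13 higher, 1 lower and 6 not passing, with a median log2 fold change of 0.40. The share called was 70.0%, against 47.2% of all tested genes. The kinase gene Pim1 stood at 619 ± 24.8 CPM in IRF2_KO and 460.1 ± 17.9 CPM in Parental, and the survival gene Mcl1 at 315 ± 7.12 CPM in IRF2_KO and 236 ± 9.28 CPM in Parental. Both also belong to the STAT5 list. Lcn2, a neutrophil granule protein, rose by 0.54, and Cd177, a neutrophil surface protein, fell by 0.95 on the log2 scale. In the RAS and PI3K arm, 8 of 24 rose, 5 fell and 11 did not pass (median 0.08), a share called of 54.2%, against 47.2% of all tested genes. Pik3r5 and Spry2 rose by 0.77 and 0.41, and Spred1 and Spry1, inhibitors of RAS signalling, fell by 0.41 and 0.61.

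Other cytokine receptors went both ways, with 8 of 23 tested higher, 7 lower and 8 not passing. Their median log2 fold change was 0.01, and 65.2% were called, against 47.2% of all tested genes. Il13ra1 stood at 75.3 ± 5.46 CPM in IRF2_KO and 18.0 ± 1.05 CPM in Parental, and Il10ra at 14.2 ± 1.21 CPM in IRF2_KO and 7.59 ± 0.481 CPM in Parental. The macrophage growth factor receptor Csf1r rose by 1.96 and the stem cell factor receptor Kit fell by 3.26 on the log2 scale. Il5ra, whose product would share the Csf2rb chain, had no read in any library.

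**Figure D5:**
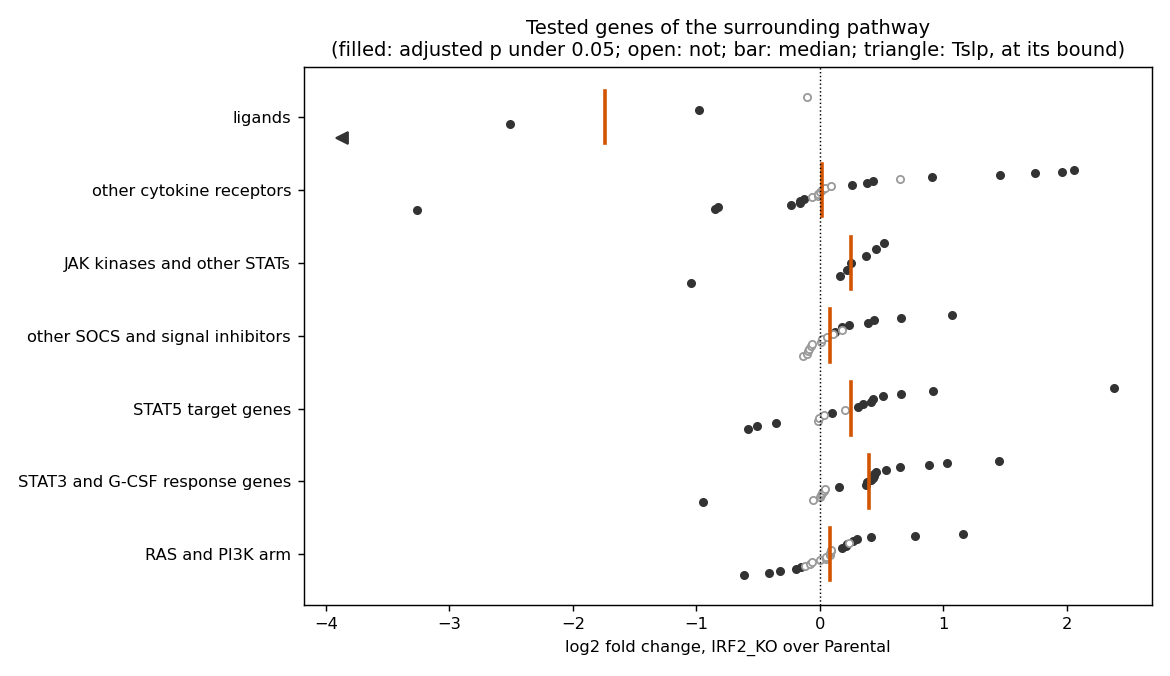
Log2 fold change of IRF2_KO over Parental (x axis) for each tested gene of the 7 pathway lists, filled where the adjusted p was under 0.05. Bars are list medians, from -1.74 for the 4 tested ligands to 0.40 for the STAT3 and G-CSF response genes, and Tslp is drawn at its bound.

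Total counts lay between 29070160 and 34051219 in IRF2_KO and between 33422590 and 39925038 in Parental. Over all tested genes, 23.6% were called higher and 23.6% lower, which is the background for each marker count given here. Of 11 tested progenitor markers, 2 were higher in IRF2_KO (Ctsg and Gfi1) and 5 lower (Mpo, Elane, Myb, Kit and Cebpa). Hoxb8, Prtn3, Ms4a3 and Spi1 did not pass, and Cd34 was near 0 in both groups. Ctsg averaged 4195 CPM in IRF2_KO and 3829 CPM in Parental, and Gfi1 484.5 CPM in IRF2_KO and 452 CPM in Parental. Hoxb8 averaged 135 CPM in IRF2_KO and 127 CPM in Parental, Elane 924 CPM in IRF2_KO and 2989 CPM in Parental, and Kit 0.827 CPM in IRF2_KO and 8.04 CPM in Parental. Macrophage markers were higher in IRF2_KO in 8 of 9 tested genes of 15, with a summed level of 1188 to 1219 CPM in IRF2_KO and 496 to 507 CPM in Parental, although C1qb had no read and C1qa, C1qc, Marco and Vsig4 were close to 0. Cd163 was too low to test, with no read in IRF2_KO and 23 reads in Parental. Dendritic cell markers were higher in 4 of 5 tested genes of 10, with a summed level of 52.9 to 59.7 CPM in IRF2_KO and 34.4 to 36.7 CPM in Parental. Csf2ra and Csf2rb are also expressed by such cells, and the part of these markers in the members' differences was not tested. Of 11 lymphocyte markers none passed the filter, and the 13 markers of eosinophils, basophils and mast cells had no call among the 3 tested. Erythroid and megakaryocyte markers had 1 of 3 lower, and stromal markers 1 of 1 higher. In bulk RNA, fewer cells of a type and less RNA per cell cannot be told apart.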

How the data were processed

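Per the submitters' processing notes, the authors aligned reads with GSNAP to GRCm38. The aligner version is not given in the sources used here. The labels' protocols name a stranded kit for total RNA, while the molecule label names polyadenylated RNA. The deposited tables give counts of uniquely placed reads per gene and RPKM adjusted by size factors, per the file headers. In 10995 genes the RPKM per count of each library, divided by that of Parental library 1, was the same for every gene. Library numbers used here follow the order of the samples within each group and are not given in the labels.

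Members and lists were chosen with earlier results of these data known. RefSeq symbols (GRCm38.p6) matched 31049 of 36528 IDs. In R 4.3.3, edgeR 4.0.16 tested 13353 genes kept by filterByExpr, with TMM factors of 0.987 to 1.02, by its two-sided quasi-likelihood test with robust dispersion, adjusting p over all genes by Benjamini-Hochberg. The SE is the log2 fold change over the square root of F. The procedure was tested on simulated data. Alternatives used DESeq2 1.42.0, limma 3.58.1 and other scalings, filters and thresholds. Pathway genes named beyond the members are all tested genes of lists of up to 12, and otherwise up to 4 per list ranked by adjusted p. Others, marker genes included, were named after their values were seen. The mean chi-square per gene between libraries of a group was 2.78 to 10.1, above the 1 of sampling noise, so no library was treated as a repeat. Shared 50-base windows and exon overlaps come from GENCODE M21. A gene of the pathway lists is not reported here.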

Additional observations from a re-analysis of the deposited data

How the results depend on the processing

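Of 17 alternatives, 16 left the count of called members between 6 and 8 and that of all called genes between 4767 and 6518, beside 7 and 6296. Testing against a 1.5-fold change with glmTreat left 1 member, Il3ra, and 1019 genes. Leaving out each library in turn gave 7 members every time and 5256 to 6216 genes. The filter of 1 CPM in 3 libraries removed Il3ra, whose log2 fold change was -1.47 on RPKM with a pseudocount of 0.1 and -0.28 with a pseudocount of 1, as a pseudocount above the level shrinks it; its other alternatives gave -3.79 to -3.13. Leaving out libraries gave Socs3 log2 fold changes of -0.0704 to 0.0196, the only change of sign being without IRF2_KO library 1, and Socs3 was called in no alternative. Every other member kept its direction in each alternative that gave it a value, and the 4 pair ratios kept theirs in their 7. No paired analysis was possible because the labels give no replicate numbers. Depth limits Il3ra most, with 6 reads over the IRF2_KO libraries.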
